A study of Bos taurus with 4 samples.

Results

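The mitochondrial ribosome is the ribosome inside mitochondria. It translates the few messenger RNAs that mitochondrial DNA encodes, all of them for core subunits of the respiratory chain and the ATP synthase, whereas its own proteins are encoded in the nucleus, made in the cytosol and imported. Its small subunit (MRPS proteins) decodes the messenger RNA and its large subunit (MRPL proteins) joins the amino acids. Many of these proteins descend from the proteins of bacterial ribosomes, while others were added in the mitochondrial lineage. In skeletal muscle the ribosome serves a tissue whose slow, oxidative fibres are rich in mitochondria.

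The genes described here are those whose symbol begins with MRPL or MRPS followed by a digit. The reference table held 78 such symbols and the array 53 of them, 38 MRPL and 15 MRPS genes, of 7788 genes that could be named on the array. All 53 were measured: each had a probe whose LIM and HF signals were well above background on every array. MRPL39 had 2 probes and was represented by the brighter one, and every other gene had 1. For 25 symbols no probe was named: MRPL3, MRPL12, MRPL17, MRPL21, MRPL30, MRPL35, MRPL36, MRPL38, MRPL40, MRPL41, MRPL55, MRPS6, MRPS7, MRPS9, MRPS10, MRPS12, MRPS16, MRPS18B, MRPS22, MRPS23, MRPS25, MRPS26, MRPS33, MRPS35 and MRPS36.

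RNA came from the semitendinosus, a hind-leg muscle, of bulls aged 15 months. Each of 4 two-colour microarrays compared the Cy5-labelled RNA of a Limousin (LIM, beef breed) bull with the Cy3-labelled RNA of a Holstein-Friesian (HF, dairy breed) bull, which makes 4 bulls per breed. With the dyes never swapped, an effect of breed and one of dye cannot be told apart, and "LIM" and "HF" below mean the channels labelled so. The 10 measured skeletal muscle markers of 14 listed, among them ACTA1, CKM and DES, stood well above background in either channel of each array. In whole tissue, fewer cells of a type and less RNA per cell cannot be told apart. Values are log2 ratios of LIM over HF after loess normalisation, which sets the ratio to centre on 0 at every signal intensity, with the moderated standard error of limma over 4 arrays. All signs follow the dye labels, and this direction is the opposite of the one described in the study's text. That was checked on 12 genes, of which 0 had the same sign. The qPCR and the myostatin protein blot described in that text follow its direction as well. Whether the channel labels or the text are exchanged could not be settled here, so the channels may be exchanged and every direction below holds for the channels as labelled.

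The comparison of LIM with HF addressed whether the components of the mitochondrial ribosome differ in expression between a beef and a dairy breed. Of the 53 genes, 0 were higher in LIM, 2 were lower, MRPL52 and MRPS24, and 51 did not pass the test (adjusted p under 0.05 in limma). Over all 6376 genes, 2.78% were higher and 3.15% lower, so that the 2 of 53 genes called lower stood close to the background share. At an unadjusted p under 0.05 there were 12 of the 53 genes, against 28.9% of all genes. The mean log2 ratios ran from -0.55 for MRPL52 to 0.37 for MRPL15, with 24 genes above 0 and 29 below, and their median was -0.03, against 0.00 over all genes. In this main processing none of the 53 was 1.5-fold or more apart between the channels, whereas 7.31% of all genes were. That count changed with the processing, as described below.

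**Figure D1:**
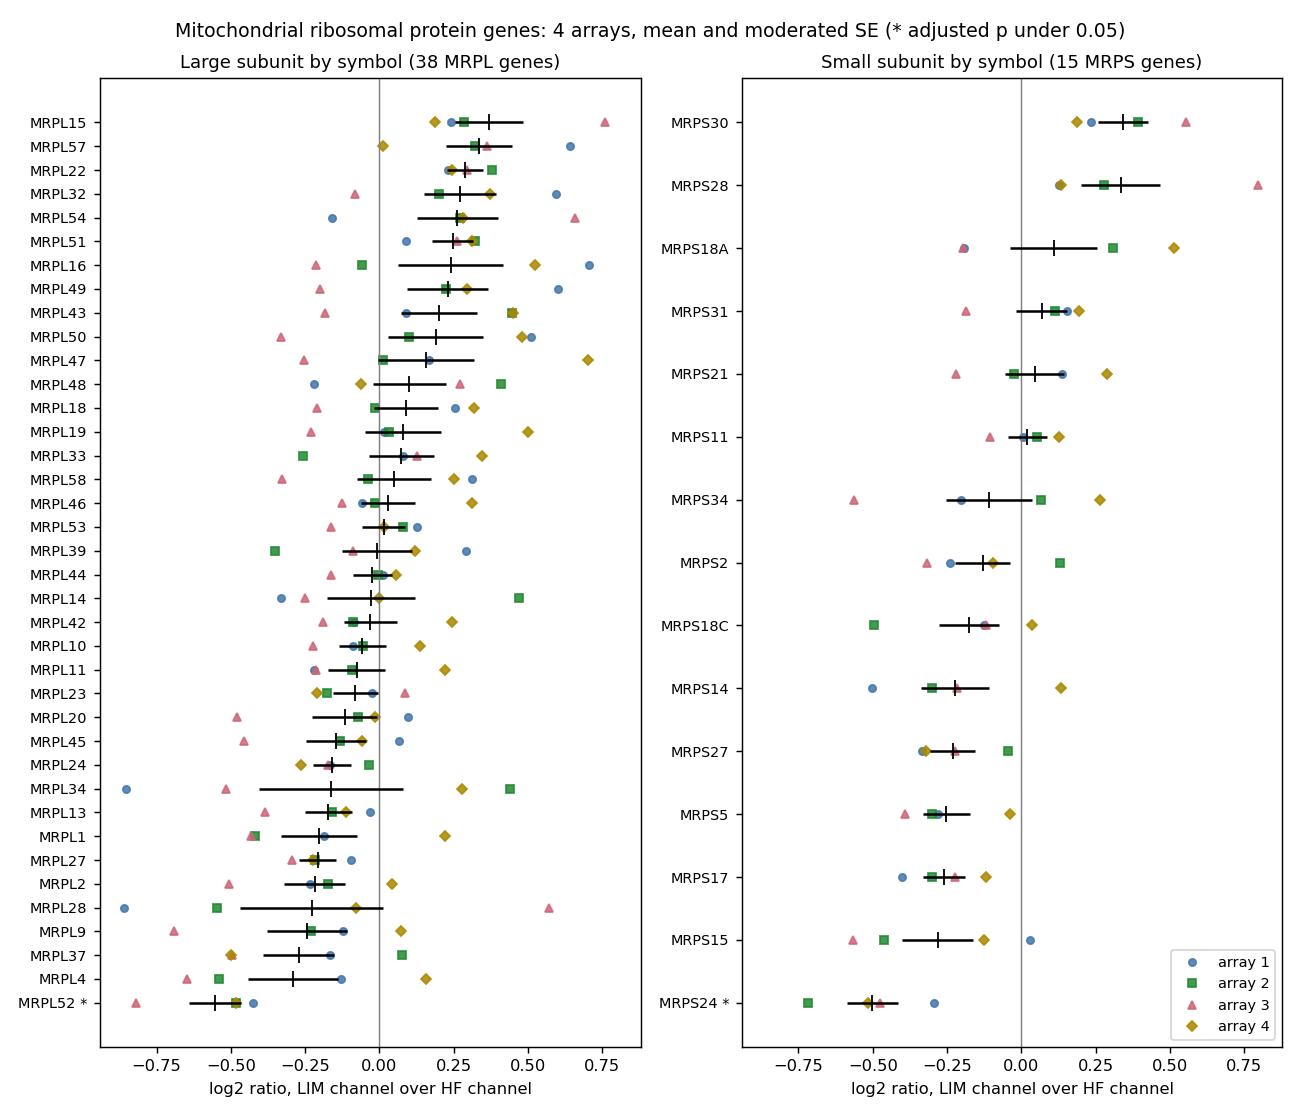
Log2 ratio of LIM over HF (horizontal axis, loess-normalised) for 38 MRPL genes (left) and 15 MRPS genes (right), 1 row per gene, sorted by the mean. Coloured symbols are the 4 arrays, each with its own pair of bulls, and the black tick and bar are the mean and its moderated standard error. Only MRPL52 and MRPS24, marked with an asterisk, had an adjusted p under 0.05, and array 3 gave the lowest of the 4 values for 31 of the 53 genes.

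MRPL52, a large subunit protein with no bacterial counterpart, fell in the channel labelled LIM. Its log2 ratios were -0.43, -0.48, -0.82 and -0.48 on arrays 1 to 4, with a mean of -0.55 ± 0.087 (adjusted p = 0.0387), which is 1.47 times more signal in HF than in LIM. All 4 arrays were below 0, and array 3 stood apart from the other 3. The normalised log2 signals were 8.94, 9.02, 8.70 and 8.77 in the LIM channel and 9.37, 9.51, 9.52 and 9.25 in the HF channel, so that the highest signal in the LIM channel lay under the lowest in the HF channel. MRPS24, the counterpart of bacterial ribosomal protein S3 at the entry of the messenger RNA into the small subunit, also fell. Its log2 ratios were -0.30, -0.72, -0.48 and -0.52, with a mean of -0.50 ± 0.085 (adjusted p = 0.0434). Its log2 signals were 10.90, 10.34, 10.46 and 10.64 in LIM and 11.20, 11.06, 10.94 and 11.16 in HF. The channels did not overlap either, though 10.90 and 10.94 lay close. For both genes this sets aside the pairing of the bulls and holds for the loess-normalised signals. The share of all genes without overlap was not counted.

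Both calls rested on all 4 arrays. Without array 1, 2, 3 or 4 the adjusted p of MRPL52 was 0.0765, 0.115, 0.0783 and 0.126, and that of MRPS24 0.0678, 0.119, 0.109 and 0.147, while the ratios stayed between -0.60 and -0.46 and between -0.57 and -0.43. With 3 arrays few genes passed anywhere: 0 of all genes without array 1, 2 or 4 and 23 without array 3. When each array was centred on its median in place of loess, the log2 ratio of all genes shifted from a median of 0.00 to 0.35, MRPL52 stood at -0.04 and MRPS24 at 0.10, which are 0.39 and 0.24 under that median, and neither passed.

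**Figure D2:**
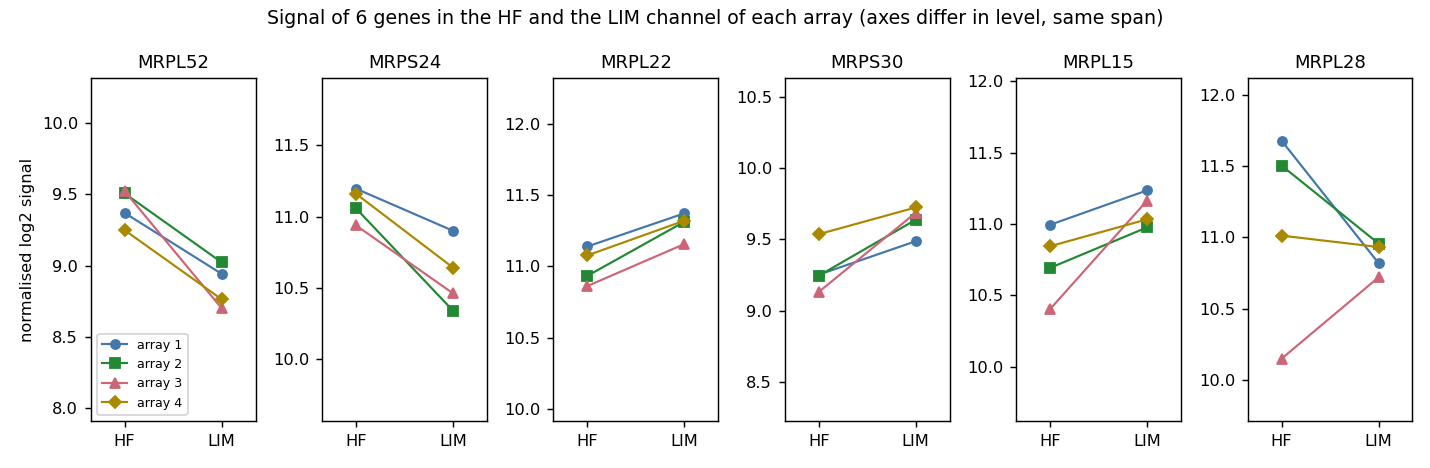
Normalised log2 signal (vertical axis) of 6 genes in the HF and the LIM channel, with 1 line per array. Vertical axes differ in level but span the same range, so slopes compare between panels and heights do not. MRPL52 and MRPS24 dropped from HF to LIM on all 4 arrays, MRPL22, MRPS30 and MRPL15 had higher LIM signals on all 4 without passing the test, and the HF signals of MRPL28 spread from 10.15 to 11.68.

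At the other end, no gene passed the test, although 6 had a ratio above 0 on all 4 arrays: MRPL15, MRPL22, MRPL51, MRPL57, MRPS28 and MRPS30. MRPL22, the counterpart of bacterial protein L22, which lines the exit tunnel of the growing peptide, was nearest to the threshold. Its log2 ratios were 0.23, 0.38, 0.29 and 0.24, with a mean of 0.29 ± 0.060 (adjusted p = 0.0608), and its SD between arrays of 0.067 was the smallest of the 53. MRPS30, which sits in the large subunit of the mammalian mitochondrial ribosome despite its name, had ratios of 0.23, 0.39, 0.56 and 0.19, with a mean of 0.34 ± 0.084 (adjusted p = 0.0781). MRPL51, a protein added in mitochondria, followed with 0.25 ± 0.069 (adjusted p = 0.0987). The highest mean was that of MRPL15, counterpart of bacterial L15, with 0.24, 0.28, 0.76 and 0.19 on the 4 arrays and a mean of 0.37 ± 0.11 (adjusted p = 0.120). Array 3 gave the highest value, apart from the other 3. MRPL57 stood at 0.33 ± 0.11, MRPS28, counterpart of bacterial S1, at 0.33 ± 0.13, MRPL32 at 0.27 ± 0.12 and MRPL54 at 0.26 ± 0.14, each with an adjusted p between 0.137 and 0.288.

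Below 0 without passing the test were MRPL4 (-0.29 ± 0.15), MRPS15 (-0.28 ± 0.12), MRPL37 (-0.27 ± 0.12), MRPS17 (-0.26 ± 0.071), MRPS5 (-0.25 ± 0.079) and MRPL9 (-0.24 ± 0.13), all except MRPL37 counterparts of bacterial proteins. Of these, MRPS17 and MRPS5 were below 0 on all 4 arrays, with adjusted p of 0.0954 and 0.123. Under median centring all 6 were above 0, at 0.35 to 0.37 and thus within 0.03 of the median of all genes. In all, 8 genes were below 0 on all 4 arrays with loess: MRPL52, MRPS24, MRPS17, MRPS5, MRPS27, MRPL27, MRPL13 and MRPL24. With the 6 above 0, 14 of 53 genes had 1 sign on all 4 arrays, against 36.2% of all genes.

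The spread between arrays was wider than the spread between duplicate spots within an array. Duplicate spots do not capture technical differences between arrays, so this gap is not a measure of differences between bulls. The SD of a gene's ratio between arrays had a median of 0.25 and exceeded the SD between its duplicate spots, with a median of 0.037, in all 53 genes. Over all genes the SD between arrays had a median of 0.21 and that between duplicate spots 0.051. Over the 3530 genes whose probes lay within the intensity range of the 53, the SD between arrays had a median of 0.26. In that range and in the main processing, 35.7% of genes had an unadjusted p under 0.05, 37.7% had 1 sign on all arrays and 9.86% were 1.5-fold or more apart. The shares of the mitochondrial ribosomal genes were lower, at 22.6%, 26.4% and 0%. The 95% interval of the log2 ratio lay within a 1.5-fold difference either way for 42 of the 53 genes and within a 2-fold difference for all 53. These intervals are those of the main processing with loess. They cover the spread between the arrays, but no effect of the dyes or of the choice of normalisation. The share of all genes with such intervals was not counted.

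The genes with the widest spread were MRPL28, MRPL34 and MRPL16, all counterparts of bacterial large subunit proteins. MRPL28 had log2 ratios of -0.86, -0.55, 0.57 and -0.08 on arrays 1 to 4, an SD of 0.62. Its HF signals were 11.68, 11.50, 10.15 and 11.01, an SD of 0.68, while its LIM signals stayed between 10.72 and 10.96, so that its spread lay in the HF channel. MRPL34 had ratios of -0.85, 0.44, -0.52 and 0.28, with channel SDs of 0.26 in LIM and 0.37 in HF. MRPL16 had ratios of 0.71, -0.06, -0.21 and 0.52. The signs differed between arrays in each of the 3 genes, and their means of -0.23 ± 0.24, -0.16 ± 0.24 and 0.24 ± 0.18 did not pass the test. The steadiest beside MRPL22 were MRPL27 and MRPL24, with SDs of 0.081 and 0.094 and means of -0.21 ± 0.063 and -0.16 ± 0.065. The HF signal varied more between arrays than the LIM signal in 35 of the 53 genes (66.0%), near the 67.5% of all genes. Bull, array and dye cannot be told apart in this spread.

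The family as a whole differed between arrays more than it differed between the channels. The median log2 ratio of the 53 genes was -0.03 on array 1, -0.02 on array 2, -0.21 on array 3 and 0.13 on array 4, whereas the medians of all genes ran from -0.02 to 0.02. On array 3, 11 of the 53 genes were above 0, and on array 4, 36 were; on arrays 1 and 2 there were 25 and 23. Array 4 gave a higher ratio than array 3 for 40 of the 53 genes (75.5%), with a median difference of 0.35, against 55.3% of all genes and a median difference of 0.04. Without array 3 the median of the 53 genes was 0.02, and without array 1, 2 or 4 it was -0.02, -0.03 and -0.06, so that its sign rested on array 3. Across the 53 genes the ratios of 2 arrays correlated with Pearson's r from 0.20 to 0.44, compared with 0.40 to 0.60 across all kept probes; the points of such a correlation share their pair of arrays, and genes are not independent replicates.

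Separated by subunit, the 38 MRPL genes had a median log2 ratio of -0.02 and the 15 MRPS genes of -0.13. The medians of the MRPL genes on arrays 1 to 4 were -0.01, -0.02, -0.21 and 0.17, and those of the MRPS genes -0.19, -0.02, -0.22 and 0.13. The large subunit stood 0.18 above the small one on array 1, 0.05 above it on array 4, and within 0.01 of it on arrays 2 and 3. The mean of these 4 differences was 0.06, with an SD of 0.086 between arrays. The difference of the medians of the mean ratios was 0.11, and it lay between 0.08 and 0.16 when any array was left out. With MRPS30 and MRPS18A, which sit in the large subunit despite their names, counted there, it was 0.18. Each subunit held 1 gene called lower and 0 called higher. Of the MRPL genes 18 of 38, and of the MRPS genes 6 of 15, were above 0. With the genes split by symbol, the mean difference between the subunits was smaller than its spread between arrays. The differences on each array with MRPS30 and MRPS18A counted in the large subunit are not given here. No test was applied because the genes of a subunit are not replicates.

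In lists drawn up by origin, the median ratio of the counterparts of bacterial proteins lay below that of the proteins listed as mitochondrion-specific in both subunits. The 22 measured bacterial-type proteins of the large subunit had a median of -0.08, with 8 above 0 and 0 passing the test. The 18 measured mitochondrion-specific proteins of the large subunit, with MRPS30 and MRPS18A counted where they sit, had a median of 0.07, with 12 above 0 and MRPL52 as the 1 called lower. MRPS18A is in this list for its place and not for its origin, whereas MRPS18C is in the bacterial-type list of the small subunit. The median with MRPS18A left out is not given here. In the small subunit the 10 measured bacterial-type proteins had a median of -0.20, with 3 above 0 and MRPS24 called lower, and the 3 mitochondrion-specific ones, MRPS27, MRPS31 and MRPS34, had a median of -0.11. The 2 large subunit lists kept this order on all 4 arrays, with medians of -0.06, -0.06, -0.23 and 0.17 for the bacterial type against 0.08, 0.09, -0.17 and 0.22. In the small subunit the order held on arrays 2 and 4 only. Under median centring the 4 medians were 0.53, 0.67, 0.42 and 0.51, so the signs of 3 of the 4 lists turned while both orders stayed. Without array 4 the median of the mitochondrion-specific large subunit list was 0.00. In the large subunit the bacterial-type list had a median log2 intensity of 11.08 and the mitochondrion-specific list 9.98. In the small subunit these were 10.94 and 10.93. The part of intensity in the order of the lists was not tested.

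MRPS18A, which like MRPS30 is found in the large subunit, had a log2 ratio of 0.11 ± 0.15. MRPL58, a peptidyl-tRNA hydrolase that became part of the large subunit, had 0.05 ± 0.12. The probes of MRPL39 gave -0.01 ± 0.12 and 0.02 ± 0.13, opposite in sign but each within its error of 0.

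The intensity of a probe, which depends on the probe as well as on the transcript, moved with the ratio inside the family. Below the members' median intensity, 16 of 26 genes were above 0, with a median log2 ratio of 0.06, and at or above it 8 of 27 were, with a median of -0.15. The medians of all genes on the same sides of that intensity were 0.00 and -0.01. Without loess, with each array centred on its median, the same groups of members had medians of 0.63 and 0.49, while all genes had 0.23 on the dimmer and 0.64 on the brighter side. The part of intensity in these values was not tested.

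**Figure D3:**
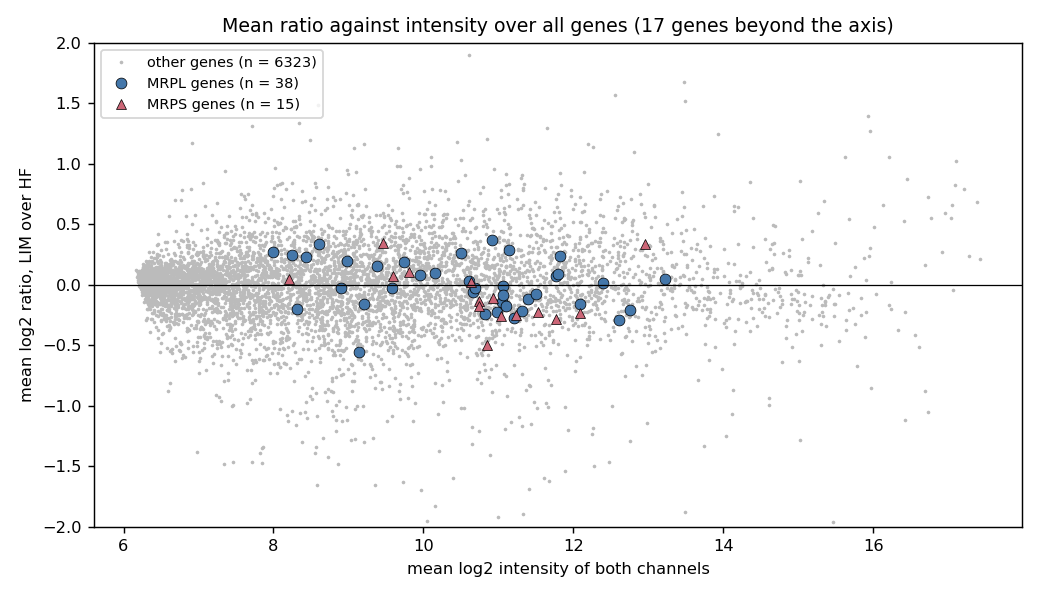
Mean log2 ratio of LIM over HF (vertical axis) against the mean log2 intensity of both channels (horizontal axis) for 6323 other genes (grey), 38 MRPL genes (blue circles) and 15 MRPS genes (red triangles), after loess; 17 genes lie beyond the vertical axis. The 53 genes lie at intensities from 7.99 to 13.22, and below 0 more often on the brighter side.

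The choice of normalisation moved the whole family. Under median centring the median log2 ratio of the 53 genes was 0.55, which is 0.20 above that of all genes, whereas with loess it was 0.03 below it. Of the 53 genes, 18 were then called higher and 0 lower, where 25.5% of all genes were called higher and 1.71% lower. A direction for the family against all genes is therefore not given by these arrays. The large subunit stayed above the small one under both.

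**Figure D4:**
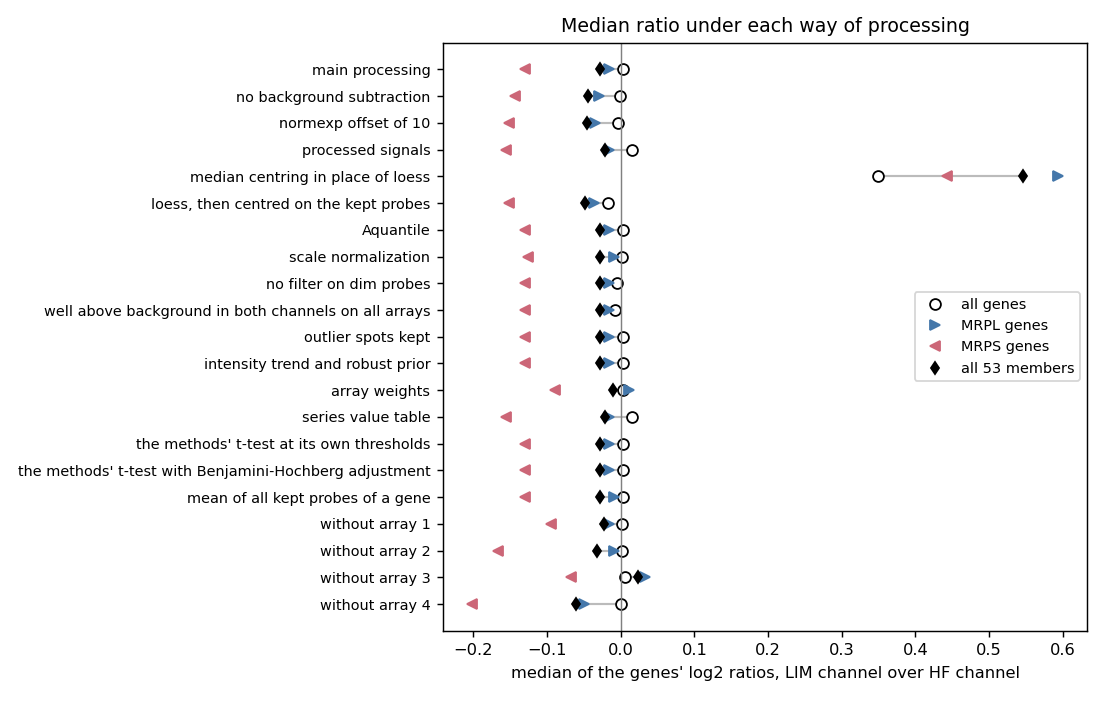
Median log2 ratio of LIM over HF (horizontal axis) under each way of processing (rows) for all genes (open circles), the 53 mitochondrial ribosomal genes (black diamonds), the MRPL genes (blue) and the MRPS genes (red). Median centring moved every median to 0.35 or above, leaving out array 3 moved the median of the 53 genes to 0.02, and in each row the MRPL genes lay above the MRPS genes.

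The ribosome also holds proteins under other symbols, of which 4 of 6 listed were measured. GADD45GIP1, a large subunit protein that was first described as a nuclear regulator, rose in LIM. Its log2 ratios were 0.45, 0.81, 0.84 and 0.65, with a mean of 0.69 ± 0.086 (adjusted p = 0.0268). That mean lay above the highest mean of the 53 MRPL and MRPS genes, 0.37, though on single arrays some of those genes came near it or above, such as MRPS28 with 0.80 on array 3. The adjusted p of GADD45GIP1 was between 0.0563 and 0.106 when any array was left out and 0.0168 with median centring. With the methods' t-test after Benjamini-Hochberg adjustment it was 0.136 and did not pass. The small subunit proteins PTCD3, AURKAIP1 and CHCHD1 stood at -0.15 ± 0.10, -0.10 ± 0.099 and -0.01 ± 0.10 and did not pass.

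Of the factors that act with the ribosome, 0 of 6 measured translation factors passed the test. The nearest were SLIRP, which stabilises mitochondrial messenger RNA, at -0.55 ± 0.12 (adjusted p = 0.0627), and MTRF1L, a release factor, at 0.41 ± 0.093 (adjusted p = 0.0701). Of 15 measured assembly factors 0 passed; DDX28, an RNA helicase, and NGRN, which binds the large ribosomal RNA, had -0.41 ± 0.11 and -0.47 ± 0.13. Of 15 measured mitochondrial aminoacyl-tRNA synthetases and related enzymes, which charge the transfer RNAs, HARS2, for histidine, was the 1 called lower and 0 were higher. Its log2 ratios were -0.38, -0.28, -0.45 and -0.29, with a mean of -0.35 ± 0.062 (adjusted p = 0.0446). HARS2 passed in 8 of 19 alternatives, including the Aquantile scaling of the channel signals, which leaves the ratios unchanged and so could not differ. Its adjusted p was between 0.103 and 0.139 when any array was left out. It was also over the threshold with an offset of 10 (0.0592), the stricter filter (0.0551), the robust prior (0.0852), the processed signals (0.0941) and the series value table (0.0940). With the methods' t-test after Benjamini-Hochberg adjustment it was 0.134. The 19 alternatives leave out the study's own criterion, an unadjusted p together with a 1.3-fold change. By that criterion HARS2 was not called either. Under median centring its ratio was 0.15, which is 0.20 under that of all genes, and did not pass. Across these 3 lists the medians were -0.12, -0.01 and -0.07 with loess and 0.35, 0.42 and 0.37 with median centring, within 0.08 of that of all genes in the latter.

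Compared with the cytosolic ribosome, the mitochondrial one showed no common sign with loess. Under median centring 52 of the 53 genes were above 0, where the median of all genes was itself 0.35. The shares of all genes and of the cytosolic genes above 0 were not counted there. Of 55 cytosolic ribosomal proteins 52 had a log2 ratio below 0 with loess, with a median of -0.25, 2 called lower and 0 higher, and 28 at an unadjusted p under 0.05. Their median was below 0 on all 4 arrays, at -0.21, -0.29, -0.43 and -0.08, and it was 0.42 under median centring. The 65 subunits of the respiratory chain and the ATP synthase, most of them nuclear partners of the proteins that the mitochondrial ribosome makes, had a median of -0.12, with 4 called lower and 0 higher. Those 4 were NDUFA5, NDUFA12, NDUFB10 and ATP5PO, with ratios between -0.56 and -0.38. Their median was -0.21, 0.05, -0.18 and 0.01 on arrays 1 to 4 and 0.56 under median centring. All 3 groups had their lowest or next to lowest median on array 3. The groups also differed in median log2 intensity, at 15.06 for the cytosolic proteins, 13.74 for the respiratory chain and ATP synthase and 10.84 for the 53 genes. The difference between the groups was not tested, since each is a list of genes on the same arrays.

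Other transcripts differed between the same pairs of bulls. MYH7, the myosin of slow fibres, had log2 ratios of -2.16, -0.37, -1.24 and -0.45 on arrays 1 to 4 and did not pass the test (adjusted p = 0.116 in limma). The 10 muscle markers together had medians of 0.03, -0.15, -0.06 and 0.19, with 2 called higher (MB and TNNC2) and 0 lower. All 5 fibroblast markers were measured, with medians of 0.18, 0.69, 0.63 and 0.85 and 0 past the test. On array 3, COL1A1, COL1A2 and DCN had their highest ratios, at 2.55, 2.83 and 0.51, while LUM stood at 0.63 and PDGFRA at -0.08; the means of PDGFRA and DCN over the arrays were -0.27 and -0.23. Of 5 endothelial markers the 2 measured had medians of -0.39, 0.46, -0.68 and 0.09, and of 5 adipocyte markers the 3 measured had -0.32, 1.29, -0.42 and 1.15. Arrays 1 and 3 were thus the lower ones for both, and also for the 2 measured nerve markers (-0.52, 0.06, -0.73 and -0.06). Other lists had another order. The 3 measured macrophage markers had medians of 0.12, -0.18, -0.46 and -0.89, and the 3 T and B cell markers -0.22, 0.01, 0.03 and -0.16. The 2 blood markers had -0.15, -0.02, 0.23 and -0.54. The part of these cell types in the ratios of the ribosomal genes was not tested.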

How the data were processed

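Each of 4 arrays held 1 pair of bulls, grouped per the labels. Per the file headers the authors scanned them and quantified spots with Feature Extraction 10.7.3.1 on a design built on HGSC Btau_3.1. The deposited intensity values are median spot and background brightness per dye, not normalised, with processed signals beside them. The deposited log10 ratios are processed Cy5 over Cy3; the value table of the series repeats them (largest difference 0), in that direction, with column medians of 0. The deposited flags mark spots above background, saturated (0 spots) or not uniform (5 to 10 per array, left out).

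Background was corrected by limma 3.58.1 (R 4.3.3) with normexp (offset 50), which shrinks ratios of dim probes, and ratios were normalised by loess within arrays, control spots at weight 0. Spots of a probe were averaged, and 15855 of 21475 probes, well above background in 1 channel on at least 3 arrays, were kept. Of 42990 spots, 32513 to 33527 passed that test in LIM and 27102 to 28769 in HF. Mean ratios were tested against 0 (lmFit, eBayes, two-sided) with Benjamini-Hochberg adjustment over all kept probes. Channel signals were scaled by Aquantile. Names came from a RefSeq table (ARS-UCD2.0) for 8297 probes; 6376 genes had a kept probe, and the brightest stood for a gene. The fit was tested on simulated data.

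The members, lists and tests were chosen with earlier results of these data known. Named are members past the test, the 8 highest and 8 lowest, the 3 most and 3 least variable, those whose probes disagree in sign, MRPS30, MRPS18A and MRPL58, and from other lists those past the test or the 2 with the smallest p; cell markers and respiratory genes were named after their values were seen. Alternatives were the background correction, offset, processed signals, centring, scaling, filter, outlier spots, prior, array weights, the methods' t-test, the series value table, probe averaging, counting MRPS30 and MRPS18A with the large subunit and leaving out each array. All arrays lay on 1 slide, scanned together. Hereford arrays and sequences were not analysed here.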

Additional observations from a re-analysis of the deposited data

Results flagged for a closer look

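For 2 genes 1 array stood apart from the other 3. The gap between that array and its nearest neighbour took 0.854 of the whole range for MRPL52, where array 3 gave a log2 ratio of -0.82 against -0.48 to -0.43, and 0.834 for MRPL15, where array 3 gave 0.76 against 0.19 to 0.28. Both exceed the critical value of Dixon's test for 4 arrays. Among the 29 values checked, chance gives about 1.45 such cases. Without array 3, MRPL52 had a mean log2 ratio of -0.46 (adjusted p = 0.0783).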

How the results depend on the processing

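Breed and dye are confounded, and 4 pairs of bulls limit the precision. The 2 genes called lower became 1, MRPL52, with the processed signals, with the series value table and without the filter on dim probes, where all probes entered the adjustment. They became 0 with median centring in place of loess and 0 with the methods' t-test after Benjamini-Hochberg adjustment, which called 0 of all genes, while at its own thresholds it called both. Leaving out each array gave 0 to 0 called lower. No member was 1.5-fold or more apart in the main processing, which is a log2 ratio of 0.585 either way. MRPL52 passed that fold without background subtraction (-0.60), with an offset of 10 (-0.62), with the processed signals and the series value table (-0.61 each), and without array 1 (-0.60). Median centring put members such as MRPS28 (0.99) and MRPL15 (0.98) past it, and the share of all genes past it was not counted there. With median centring 18 members were called higher and their median log2 ratio was 0.55, against 0.35 over all genes. Of the 53 members 52 were then above 0, against 24 with loess, and the share of all genes above 0 was not counted there. MRPS24 (0.10) and MRPL39 (0.61) were among those that turned positive, and HARS2 (0.15) turned too. MRPS24 and HARS2 stayed 0.24 and 0.20 under the median of all genes. Loess removes a trend of the ratio with intensity that median centring leaves. The adjusted p of MRPL52 ranged from 0.0318 to 0.795 and that of MRPS24 from 0.0355 to 0.600 over the alternatives. Without array 3 the median of the members was 0.02. The difference between the subunits, 0.11, was 0.18 with MRPS30 and MRPS18A counted with the large subunit and stayed above 0 in the alternatives run. The test is paired by construction, since each array gives the ratio of 1 pair of bulls.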

Other observations

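Of 15 listed regulators of mitochondrial transcription and biogenesis, 7 were measured. MYC, a transcription factor that promotes ribosome production, was the 1 called lower in LIM, with log2 ratios of -3.29, -3.30, -2.45 and -2.10 and a mean of -2.78 ± 0.24 (adjusted p = 0.0188), and 0 were called higher. ESRRA, a nuclear receptor that drives genes of oxidative metabolism, had -0.06, 1.26, 0.29 and 1.05, with a mean of 0.63 ± 0.24 (adjusted p = 0.172). PPARGC1A, the coactivator that drives mitochondrial biogenesis, had log2 ratios of -1.40, 0.01, -1.27 and 0.06 on arrays 1 to 4, with a mean of -0.65 ± 0.31 (adjusted p = 0.246). It was low on arrays 1 and 3 and near 0 on arrays 2 and 4; the median of the 53 ribosomal genes was low on array 3 alone.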
